A study of Homo sapiens with 2 samples.

Results

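The zinc finger genes described here are the 246 protein-coding genes of chromosome 19 in GENCODE release 44 whose symbol is ZNF followed by a number and, in some, a letter. They were matched by Ensembl identifier in the 2 deposited gene count tables and are 246 of the 58735 genes those tables list. The rule itself uses no measured value, though it was chosen with earlier results of these data known.

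The study sequenced polyadenylated RNA described as matched on 2 platforms, the MinION of Oxford Nanopore, which reads RNA molecules directly, and Illumina, whose library was made with a TruSeq stranded mRNA kit that copies fragmented mRNA into cDNA. Each platform contributed 1 library, so no value below has a spread between replicates. Both libraries came from MCF10a-Snail-ER cells, a human mammary epithelial line that stably carries the transcriptional repressor Snail fused to the estrogen receptor. Both were taken after 1 day of 100 nM tamoxifen, a treatment given to start an epithelial-to-mesenchymal transition. All RNA analysed therefore carries the fusion and the drug, and no untreated or parental library was analysed here. The comparison is between measurements of 1 RNA source on different platforms, and it gives no information on what tamoxifen or Snail did.

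Most zinc finger genes of chromosome 19 stand in clusters that arose by repeated tandem duplication. Their products bind DNA through arrays of C2H2 fingers, in which cysteine and histidine residues hold a zinc ion, and many carry an amino-terminal KRAB domain. KRAB recruits TRIM28, a scaffold that brings the histone methyltransferase SETDB1, heterochromatin proteins and the NuRD complex to DNA, and many members are known for silencing transposable elements.

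The fingers of an array are joined by a short conserved linker of 5 residues, and the bases that code for it recur within and between members. These bases are shown as an example of sequence that members share, and whether they affected any count was not tested. In each line the linker-coding bases are in capitals, with 6 bases before and 9 bases after in lower case, read 5′ to 3′ on the strand of the gene. The members shown are the 6 with the most Illumina counts that hold a linker, from the GENCODE release 44 transcripts.
ZNF146: attcacACTGGAGAAAAACCTtttgagtgt
ZNF266: actcacACTGGAGAGAAACCTtataaatgt
ZNF121: acccatACTGGGGAGAAACCCtatgaatgt
ZNF544: acacacACTGGAGAAAAGCCCttcgaatgt
ZNF562: aatcacACTGGAGAGAAACCCtatcagtgt
ZNF317: atccacACCGGGGAGAAGCCTtacgagtgc

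On hg38 these windows are at chr19:36236717-36236746 on the plus strand for ZNF146, chr19:9414115-9414144 on the minus strand for ZNF266 and chr19:9566591-9566620 on the minus strand for ZNF121. The others are at chr19:58261723-58261752 on the plus strand for ZNF544, chr19:9653108-9653137 on the minus strand for ZNF562 and chr19:9160372-9160401 on the plus strand for ZNF317. Every window is coding sequence in the last exon of the canonical transcript. Over all members 1443 linkers were found in 213 genes. The commonest coding sequence, ACTGGAGAGAAACCC, made up 22.5% of them, with 324 copies in 97 members. The next, ACTGGAGAGAAACCT, differs in its last base and had 206 copies in 73 members.

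The canonical transcripts of the members encoded a median of 12 C2H2 fingers, from 1 in ZNF428 to 36 in ZNF208. A sequence pattern typical of the KRAB A box occurred in 177 of the 246 members, against 199 of 19800 other protein-coding genes (1.0%). The median 3′ UTR was 1691 bases, from 3 bases in ZNF878 (its stop codon alone) to 12022 in ZNF431, beside a median of 1021 bases in the other protein-coding genes. The 3′ UTR made up a median of 45.4% of a member's canonical transcript and 39.4% of that of another protein-coding gene. Of the 246 members, 185 (75.2%) overlapped the body of another annotated gene, beside 64.4% of all annotated genes in the tables. The exons of 148 members met an exon of another gene. Sequence shared with genes elsewhere was scarce in most members: the share of 50-base words that also occur in a gene that does not overlap had a median of 1.65% and reached 58.1% in ZNF98, while 62 members had no such word.

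The Nanopore library held 403235 gene counts and the Illumina library 191741714, which is 476 times as many. Expressed per 1000000 counts of a library (CPM), a single count is worth 2.48 CPM in the Nanopore and 0.00522 CPM in the Illumina library. A count of 0 was given a floor of 3 counts, which is 7.44 CPM in the former and 0.0156 CPM in the latter. The exact intervals used below reach further, to 9.15 CPM for a Nanopore count of 0. Markers of mammary epithelium, among them the basal keratins KRT5 and KRT14, were detected in both libraries (12 of 12 genes; sums of 4439 CPM by Nanopore and 4725 by Illumina). Of 4 leukocyte markers none had a Nanopore count, and their Illumina sum was 0.125 CPM, with CD3E at 0. The 3 endothelial markers had no Nanopore count and an Illumina sum of 5.16 CPM, and the 6 fibroblast markers summed to 27.3 and 33.8 CPM, of which DCN gave 24.8 and 26.5 CPM and COL1A1 0 and 4.93 CPM.

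The first comparison asked which members each library detected. The members together held 280 Nanopore counts (0.0694% of the library) and 207582 Illumina counts (0.108%). By Nanopore 97 of 246 members had at least 1 count, or 39.4% (exact 95% interval 33.3 to 45.8). By Illumina 209 had at least 1 count, and these included all 97. The remaining 37 were at 0 in both libraries, and no member was counted by Nanopore alone. Of the 19585 other protein-coding genes, 59.5% had a Nanopore count, 4193 were at 0 in both libraries and 77 were counted by Nanopore alone. Over all 58735 genes, 26.7% had a Nanopore count, 30763 were at 0 in both and 649 were counted by Nanopore alone. In a bulk library, fewer cells with a transcript and less of it per cell cannot be told apart.

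Among the members, 149 had no Nanopore count, 70 had 1 or 2, and 27 had 3 or more. Only ZNF581, ZNF565, ZNF428, ZNF146, ZNF580, ZNF575 and ZNF90 reached 10 counts. The Illumina abundances, sampled at the Nanopore depth, gave an expected 136.7 detected members beside the 97 found. When Illumina counts were first divided by exonic length, 101.5 were expected. The 262 ZNF genes of other chromosomes had 178 detected beside 193.6 expected (164.8 with division by length), and the 1222 other protein-coding genes of chromosome 19 had 687 beside 648.1 (640.9).

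**Figure D1:**
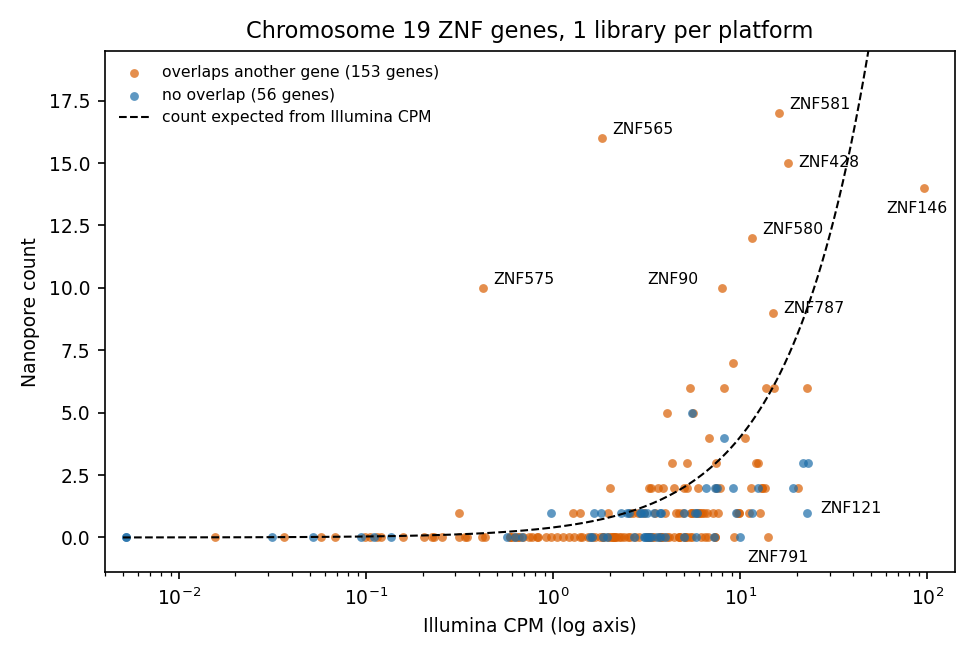
Nanopore count (linear axis) of each member with an Illumina count against its Illumina CPM (log axis), 1 point per gene and 1 library per platform, with the dashed line giving the Nanopore count expected from the Illumina CPM. ZNF565 (16 counts) and ZNF575 (10 counts) stand above the line at under 2 Illumina CPM, and ZNF146 (14 counts at 95.9 CPM) stands below it.

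Fewer members were detected than their Illumina CPM gave at each level below 10 CPM. Of 94 members between 3 and 10 Illumina CPM, 55 had a Nanopore count, where 80.6 were expected. Of 46 members between 1 and 3 CPM, 15 had one, with 25.2 expected, and of 44 members under 1 CPM 3 had one, with 6.07 expected. Illumina counts divided by length gave 58.2, 16.4 and 4.13 expected at these levels, close to the detected numbers. At 10 CPM and over, 24 of 25 were detected, the exception being ZNF791, and their summed Nanopore count was 119 where 186.7 were expected. Other protein-coding genes between 3 and 10 CPM had 1407 of 1778 detected and 1577 expected, or 1246 with division by length. Among genes between 3 and 10 CPM that overlap no other gene, 15 of 27 members were detected with 22.7 expected, and 325 of 445 other protein-coding genes with 394.4 expected. No replicate was available to test any of these differences.

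**Figure D2:**
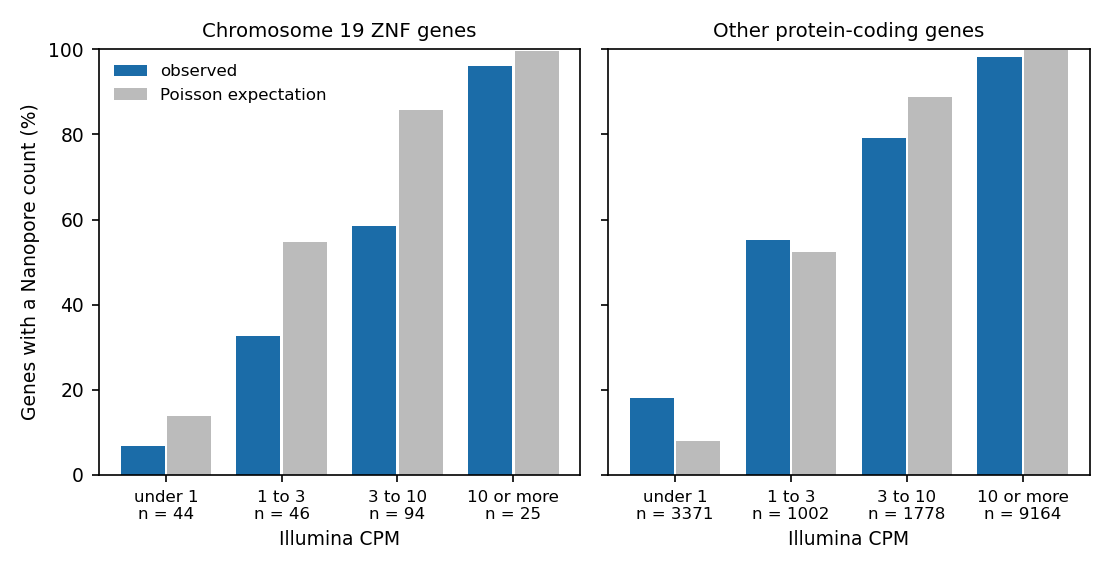
Share of genes with at least 1 Nanopore count (bars, percent) by Illumina CPM for the members, left, and other protein-coding genes, right, beside the share that Poisson sampling of the Illumina abundance would give (grey). Between 3 and 10 CPM the members had 55 of 94 detected with 80.6 expected, and other protein-coding genes 1407 of 1778 with 1577 expected.

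Members above 1 TPM stood lower than other genes above it. On a scale divided by exonic length (TPM, from the Illumina counts), 142 of 246 members (57.7%) reached 1 TPM, close to the 59.0% of other protein-coding genes and below the 75.2% of ZNF genes of other chromosomes, and 9 members reached 10 TPM. The median of those at or above 1 TPM was 2.44 TPM, beside 5.57 for ZNF genes of other chromosomes and 14.1 for other protein-coding genes. ZNF146, which encodes a protein of zinc fingers with no KRAB pattern, alone held 8.86% of the members' Illumina counts and stood at 62.7 TPM. ZNF428 followed at 31.4 TPM and ZNF581 at 26.7 TPM, and neither has the KRAB pattern. The 10 members with the most Illumina counts held 25.4% of the members' Illumina counts, while the 10 with the most Nanopore counts held 41.4% of the members' Nanopore counts (116 of 280). Across the 97 members detected in both libraries, Nanopore count and Illumina CPM had a Spearman rho of 0.441, and 0.606 across the 29 of them that overlap no gene. These are correlations across genes, which share both libraries and are not independent replicates.

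The second comparison asked which members differed between the libraries beyond counting error. A two-sided exact binomial test, conditional on the library totals, was applied to genes whose CPM averaged 5 or more over the libraries, which 52 members did and 194 did not. Of the 52, 4 met it only through their Nanopore counts, ZNF565 and ZNF575 among them. At an adjusted p under 0.05 and at least a 4-fold ratio of (CPM + 1), 2 members were higher by Nanopore, beside 12.9% of all 12414 genes tested. By the same rule 2 members, ZNF121 and ZNF791, were higher by Illumina, beside 7.31% of all genes tested. The 4-fold size of ZNF791, which had no Nanopore count, is set by the pseudocount, and with a pseudocount of 5 CPM neither gene reached 4-fold. At the same adjusted p and any fold, 6 members were higher by Nanopore (background 20.2%) and 4 by Illumina (background 27.2%), and 42 passed in neither direction. The median log2 ratio of Nanopore over Illumina was -0.51 over the 52 members and -0.42 over all genes tested, and 33 of the 52 (63.5%) were below 0, beside 63.2% of all genes tested. When Illumina counts were divided by exonic length, the median turned to 0.48 over the same 52 members and to 0.43 over all genes tested. Both shares of members called at 4-fold, 3.85% each, were below those of all genes, which include other gene types. Among other protein-coding genes tested, 4.75% were called higher by Nanopore and 7.75% by Illumina. Among ZNF genes of other chromosomes these shares were 0.66% and 11.9%. Of the 52 members, 25 had fewer than 5 Nanopore CPM, where a small difference was not detectable at this depth.

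ZNF565, a KRAB zinc finger gene, had 16 Nanopore counts (39.7 CPM, exact 95% interval 22.7 to 64.4) and 348 Illumina counts (1.81 CPM). Its Nanopore CPM was 21.9 times its Illumina CPM (12.4 to 36.0), a log2 ratio of 3.85 on the (CPM + 1) scale. ZNF565 met the filter only through its Nanopore counts, so its call rests on the values that admitted it. Of 140 other protein-coding genes tested between 1 and 3 Illumina CPM, 104 were called 4-fold higher by Nanopore and 0 by Illumina. With 5 Illumina CPM required, ZNF565 was not tested. ZNF565 lies on the minus strand at chr19:36182276-36246257, and ZNF146 lies within it on the plus strand at chr19:36214602-36238771, with 446 exonic bases in common. ZNF146 had 14 Nanopore counts (34.7 CPM, 18.98 to 58.3) and 18390 Illumina counts (95.9 CPM). The pair thus had nearly equal Nanopore counts while their Illumina counts differed 18390 to 348. ZNF146 was lower by Nanopore, at 0.362 times its Illumina CPM (0.198 to 0.608; log2 ratio -1.44; Benjamini-Hochberg adjusted p = 4.30e-05, exact conditional binomial test), a difference smaller than 4-fold.

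ZNF575 had 10 Nanopore counts (24.8 CPM, 11.9 to 45.6) and 81 Illumina counts (0.422 CPM). Its CPM ratio was 58.7 (27.1 to 113.6), with a log2 ratio of 4.18. Like ZNF565, ZNF575 met the filter only through its Nanopore counts. All 141 other protein-coding genes tested under 1 Illumina CPM were called 4-fold higher by Nanopore, so the filter left no other outcome there. ZNF575 lies on the plus strand at chr19:43525497-43536130 and shares 238 exonic bases with ETHE1, a mitochondrial sulfur dioxygenase gene on the minus strand. ETHE1 had 11 Nanopore counts and 5028 Illumina counts. As with ZNF565 and ZNF146, the Nanopore counts of the opposite-strand genes were almost equal and the Illumina counts were far apart. The strand setting of the counting is not given in the sources used here, so reads of a gene and of its opposite-strand partner cannot be told apart in the Nanopore table. The share of each count that came from the partner was not tested.

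A further 4 members were higher by Nanopore by less than 4-fold, and each shares exonic bases with another gene. ZNF581 and ZNF580, small genes of 4 and 3 fingers without the KRAB pattern, overlap each other on the plus strand over 407 exonic bases at chr19:55635459-55645623 and chr19:55635016-55643470. ZNF581 had 17 Nanopore counts and 3089 Illumina counts (16.1 CPM), a log2 ratio of 1.33. ZNF580 had 12 Nanopore counts and 2207 Illumina counts (11.5 CPM), a log2 ratio of 1.30. CCDC106, a coiled-coil gene on the same strand that overlaps both, had 18 Nanopore counts and 79 Illumina counts. The adjusted p-values were 0.00275 for ZNF581 and 0.0157 for ZNF580 by the exact conditional binomial test with Benjamini-Hochberg adjustment. ZNF581 no longer passed with Illumina counts divided by union exonic length, nor ZNF580 with division by canonical transcript length.

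ZNF428, a gene of 1 finger on the minus strand at chr19:43607224-43619629, had 15 Nanopore counts (37.2 CPM) and 3451 Illumina counts. The log2 ratio of ZNF428 came to 1.01 (Benjamini-Hochberg adjusted p = 0.0350, exact conditional binomial test). With no filter on low values, or with Illumina counts divided by length, ZNF428 no longer passed. SRRM5 on the opposite strand shares 498 exonic bases with it and had 17 Nanopore counts and 1208 Illumina counts. ZNF90, a KRAB gene of 15 fingers at chr19:20077994-20127076, had 10 Nanopore counts (24.8 CPM) and 1526 Illumina counts (7.96 CPM), a log2 ratio of 1.53 with an adjusted p of 0.00981 by the same exact test and adjustment. A processed pseudogene of 441 exonic bases on the same strand lies within the exons of ZNF90, which cover 6088 bases. It had 9 Nanopore counts and 1485 Illumina counts, close to those of ZNF90 itself. The counts of ZNF90 thus cannot be read as the level of its own transcript, and their source was not tested. A long noncoding RNA on the opposite strand also had 9 Nanopore counts and was at 0 by Illumina.

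Among members lower by Nanopore, ZNF121 overlaps no other gene. It lies on the minus strand at chr19:9560329-9584504, has 9 fingers, and its 3′ UTR is 5614 bases. It had 1 Nanopore count and 4379 Illumina counts (22.8 CPM), a CPM ratio of 0.109 (0.00275 to 0.605), with an adjusted p of 0.00590 by the exact conditional binomial test with Benjamini-Hochberg adjustment. ZNF791, a KRAB gene of 17 fingers, had no Nanopore count and 2711 Illumina counts (14.1 CPM). Against the 3-count floor of the Nanopore library ZNF791 was 1.90-fold higher by Illumina, and the exact interval of its CPM ratio reached up to 0.647. The adjusted p of ZNF791 was 0.0168 by the same exact test and adjustment. ZNF562, with a 3′ UTR of 11145 bases, had 2 Nanopore counts and 3921 Illumina counts, a CPM ratio of 0.243 (0.0294 to 0.877), and its adjusted p of 0.0484 by that exact test stood just under the threshold. ZNF562 no longer passed under TMM or median-ratio scaling, which set other library sizes. Divided by length, ZNF562 turned to a log2 ratio of 0.18, while ZNF121 and ZNF146 stayed negative at -1.45 and -0.83, and ZNF121 no longer passed. With canonical transcript length ZNF146 no longer passed either, at a log2 ratio of -0.35.

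Other members with high Illumina levels did not pass. ZNF266 had 3 Nanopore counts and 4424 Illumina counts, and its CPM ratio was 0.322 (0.0665 to 0.943). ZNF507 had 3 and 4121, and ZNF317 had 2 and 3662. ZNF544 had 6 and 4333, and an unnamed protein-coding gene on its strand, which spans both ZNF544 and ZNF8 and shares 511 exonic bases with ZNF544, had 18 and 6167. ZNF584 had 6 and 2908, a CPM ratio of 0.981 (0.360 to 2.14). ZNF787 had 9 and 2864, and ZNF358 had 7 and 1750, both with more Nanopore counts than their Illumina CPM would give. None of these genes differed beyond counting error at the adjusted threshold, though a p over that threshold does not show equal levels.

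After ZNF791, the members with the most Illumina counts among those unseen by Nanopore were ZNF226 (1917 counts), ZNF8 (1773 counts, 9.25 CPM), ZNF526 (1406 counts, 7.33 CPM) and ZNF766 (1402 counts, 7.31 CPM). Against the Nanopore floor, Illumina stood 1.34-fold higher for ZNF226 and 1.24-fold higher for ZNF8. These folds are not lower bounds by the exact interval. That interval of the Nanopore over Illumina CPM ratio reached up to 0.916 for ZNF226 and 0.990 for ZNF8. ZNF526 and ZNF766 lie under the floor, and no fold was formed. ZNF226, ZNF8, ZNF526 and ZNF766 were picked for having no Nanopore count. They did not meet the filter and were not tested. Some members were looked up for their known roles and not for their values. ZNF91 and ZNF93, which bind SVA and LINE-1 retrotransposons, had 0 Nanopore counts and 632 and 80 Illumina counts. ZNF274, which guides SETDB1 to zinc finger gene clusters, had 1 and 2217. ZNF224, a KRAB repressor, had 0 and 1240, and the imprinted gene ZNF331 had 0 and 593.

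The third comparison followed the members along the chromosome. Members were joined into a cluster where the gap to the next was at most 1 Mb and both lay on the same arm, which gave 16 clusters numbered from the end of the short arm. Of these, 4 held 1 member, and 7 held 10 or more members and 225 of the 246 in all. Length-scaled levels differed widely between the large clusters. Median Illumina TPM was 2.69 in cluster 2 (ZNF557 to ZNF846), 2.04 in cluster 16 (ZNF628 to ZNF446), 1.66 in cluster 12 (ZNF575 to ZNF296), 1.48 in cluster 15 (ZNF175 to ZNF331) and 1.20 in cluster 9 (ZNF565 to ZNF573). It was 0.390 in cluster 3 (ZNF653 to ZNF791) and 0.203 in cluster 5 (ZNF101 to ZNF254). The ranges of TPM in all 7 overlapped, and with 1 Illumina library the order of these medians has no test.

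**Figure D3:**
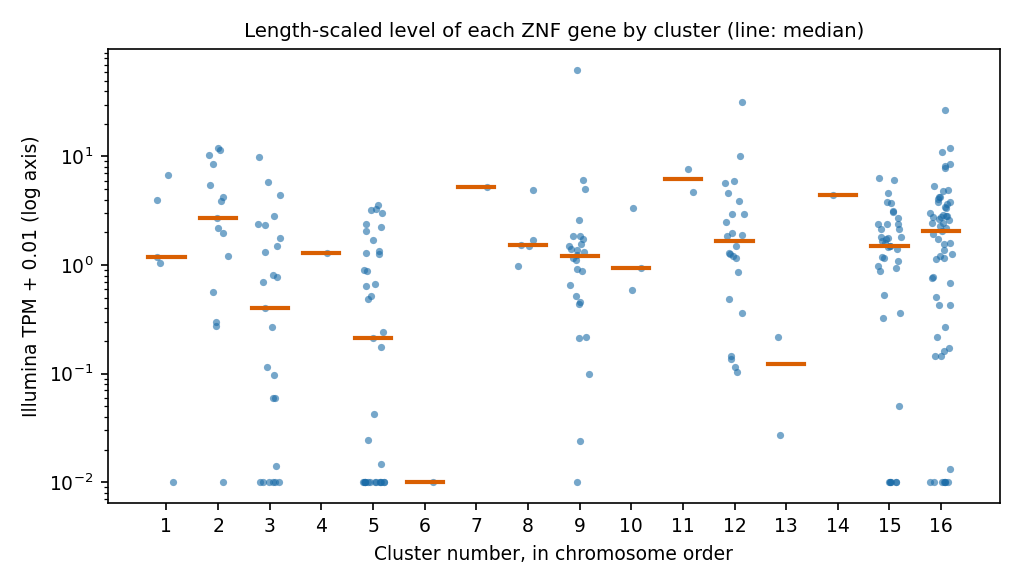
Illumina TPM + 0.01 (log axis) of each member by cluster number, 1 point per gene, with a line at each cluster's median. Clusters 3 and 5 have the lowest medians among the 7 large clusters (0.390 and 0.203 TPM), and ZNF146 in cluster 9 is the highest point at 62.7 TPM.

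Cluster 5, at chr19:19668796-24129968 beside the centromere, held 37 members, of which 33 had the KRAB pattern and 34 overlapped another gene. Of these 37, 14 were at 0 in both libraries (ZNF682, ZNF486, ZNF43, ZNF208, ZNF257, ZNF676, ZNF729, ZNF98, ZNF492, ZNF99, ZNF723, ZNF728, ZNF730 and ZNF681). Among them ZNF98 shares 58.1% of its 50-base words with other genes, chiefly with ZNF492. Only 9 members had Nanopore counts, led by ZNF90 with 10, ZNF430 with 6 and ZNF675 with 5. The pseudogene within the exons of ZNF90, described above, had nearly as many counts as ZNF90 in each library. ZNF431 had the highest Illumina CPM there, with 2390 counts (12.5 CPM) and 3 Nanopore counts. The cluster summed to 31 Nanopore counts, with 32.1 expected, a CPM ratio of 0.967 (0.657 to 1.37). Without ZNF90 the ratio was 0.728, and with Illumina counts divided by length it was 2.57 (1.75 to 3.65).

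Cluster 3, at chr19:11483427-12640098, held 25 members, of which 6 were at 0 in both libraries. ZNF700 had 3 Nanopore counts and 2314 Illumina counts (12.1 CPM), and ZNF653, ZNF20 and ZNF136 had 1 Nanopore count each. The other 21 members had none. The cluster summed to 6 Nanopore counts where 23.4 were expected, a CPM ratio of 0.257 (0.0941 to 0.559). Its interval lay below 1 with all members, and among members that overlap no gene the ratio was 0.823 with an interval that reached past 1.

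Cluster 2, at chr19:7069703-9793180, summed to 25 Nanopore counts with 53.2 expected, a ratio of 0.470 (0.304 to 0.694). It holds ZNF266, ZNF121, ZNF562, ZNF317 and ZNF358, described above, and 10 of its 15 members had a Nanopore count. Cluster 9, at chr19:36182276-37817300, summed to 47 counts with 69.9 expected, a ratio of 0.672 (0.494 to 0.894) that turned to 1.21 after division by length. Of its 47 counts, 30 came from ZNF565 and ZNF146, which overlap each other, and how many reads were counted for both is not known. Without ZNF565 the ratio of cluster 9 fell to 0.448.

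Cluster 12, at chr19:43525497-45076478, summed to 43 counts with 44.1 expected, a ratio of 0.974 (0.705 to 1.31). ZNF428 and ZNF575 gave 25 of the 43, and without ZNF428 the ratio was 0.759. All 24 members of cluster 12 had Illumina counts. Cluster 15, at chr19:51571283-53580269, summed to 30 counts with 60.1 expected, a ratio of 0.499 (0.337 to 0.712) that turned to 1.09 after division by length. ZNF83 led it in both libraries with 6 Nanopore and 2618 Illumina counts. Cluster 16, at chr19:55476617-58481230 near the end of the long arm, was the largest with 59 members and held 29.6% of the members' Nanopore counts and 25.5% of their Illumina counts. Its 83 Nanopore counts compared with 111.2 expected, a ratio of 0.746 (0.594 to 0.925) that turned to 1.21 after division by length.

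Of the small clusters, cluster 10 (3 members, led by ZNF780A with 1 and 1878 counts) had a ratio of 0.166 (0.00421 to 0.928) and cluster 11 (ZNF574 and ZNF526) a ratio of 0.243 (0.0294 to 0.879). ZNF574 had 2 Nanopore and 2505 Illumina counts. The intervals of cluster 1 (led by ZNF57 with 1 and 1069 counts, and ZNF555 with 2 and 625), of cluster 8 (ZNF30, 1 and 961) and of the single genes ZNF507, ZNF333 (1 and 1042) and ZNF473 (1 and 2137) all reached past 1. Cluster 13, led by ZNF114 with 44 Illumina counts, had no Nanopore count, and ZNF536, a gene known from the nervous system, was at 0 in both libraries. In all, 7 clusters had an interval below 1, 8 had one that held 1, and none had one above 1. These intervals cover counting error only, and the differences between clusters were not tested. A read counted for 2 overlapping members, such as ZNF565 and ZNF146 or ZNF581 and ZNF580, would enter a sum more than once. The intervals make no allowance for that. Only cluster 3 kept its interval below 1 when Illumina counts were divided by length.

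**Figure D4:**
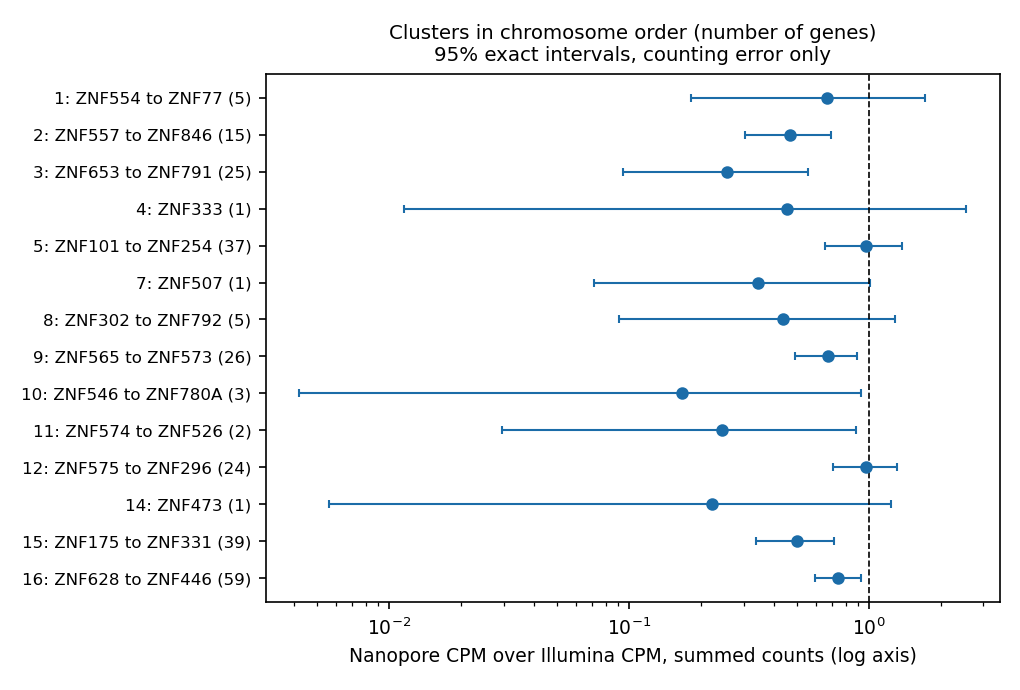
Nanopore CPM over Illumina CPM of the summed counts of each cluster (log axis), with 95% exact intervals for counting error and the number of members in brackets; clusters 6 and 13, with no Nanopore count, are left out. Cluster 3 (0.257) lies below the others of 10 or more members, and clusters 5 (0.967) and 12 (0.974) lie at 1.

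The fourth comparison set the members' overlaps and lengths beside their ratios. The 61 members that overlap no gene summed to 46 Nanopore counts and 54210 Illumina counts, a CPM ratio of 0.403 (0.295 to 0.538). The 46 with an overlap on the same strand only had a ratio of 0.716 (0.530 to 0.947), the 78 with one on the opposite strand only 0.642 (0.519 to 0.786), and the 61 with both 0.845 (0.680 to 1.04). Over all members the ratio was 0.641 (0.568 to 0.721), which turned to 1.15 (1.02 to 1.30) with Illumina counts divided by exonic length, and over the 185 with any overlap it turned from 0.725 to 1.26. It was 0.583 (0.514 to 0.659) without ZNF565 and ZNF575. ZNF genes of other chromosomes also had a ratio of 0.583 (0.544 to 0.625), and other protein-coding genes of chromosome 19 had 0.958 (0.945 to 0.971). Without and with overlap, the ratios were 0.494 and 0.612 in the former set, and 0.996 and 0.947 in the latter. In all other protein-coding genes they were 0.851 and 0.872. Of the 68 overlapping members with Nanopore counts, 40 had a partner with at least as many and 20 a partner with more, and of the 16 with 5 or more counts 7 had a partner with at least as many. No such share was computed for other genes.

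Members of different exonic length differed in the same measure. The 82 shortest, up to 4389 bases, had 134 Nanopore counts and a ratio of 1.04 (0.869 to 1.23). The 82 in the middle had a ratio of 0.514 (0.404 to 0.646), and the 82 longest, from 6776 to 18608 bases, a ratio of 0.441 (0.345 to 0.555). Illumina libraries yield more fragments from a longer transcript, whereas a direct RNA read stands for 1 molecule. With Illumina counts divided by exonic length the ratios were 1.15, 1.01 and 1.36. Other protein-coding genes of the same length ranges had ratios of 1.07, 0.730 and 0.663 before that division and 0.704, 1.45 and 2.39 after it, in the same order. Spearman rho between exonic length and log2 ratio was -0.418 over the 52 members tested, 0.078 after the division, and -0.171 over the 76 members with at least 5 Illumina CPM, as a description across genes that share both libraries.

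**Figure D5:**
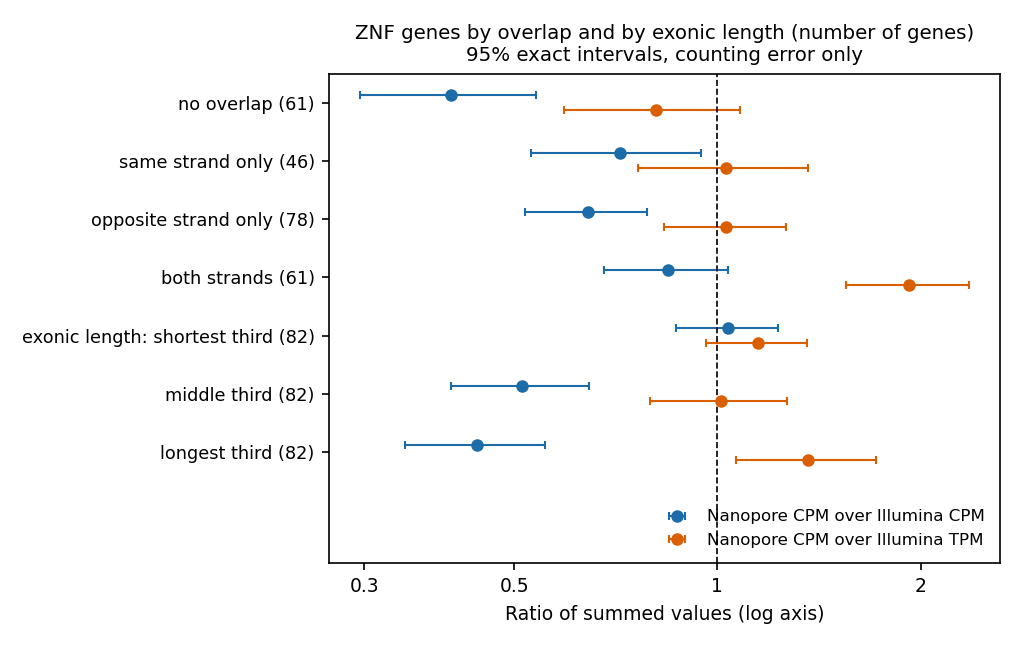
Ratio of summed values (log axis) with 95% exact intervals for counting error, for members by overlap class and by exonic length, as Nanopore CPM over Illumina CPM (blue) and over Illumina TPM (orange). Members without overlap stand at 0.403 in CPM and 0.810 in TPM, and the longest members move from 0.441 to 1.36.

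Sequence features were set beside the same measure. The 177 members with the KRAB pattern had a ratio of 0.544 (0.457 to 0.644) and the 69 without it 0.771 (0.650 to 0.908), an order that turned to 1.20 and 1.11 with Illumina counts divided by length. The 59 members with at least 5% of their 50-base words in another gene had a ratio of 0.362 (0.232 to 0.538), beside 0.692 (0.609 to 0.782) in the other 187, and after division by length the ratios were 0.870 and 1.19. The 33 members with a transcript GC content of 50% or more had a ratio of 1.12 (0.918 to 1.35). They include ZNF581, ZNF580, ZNF428, ZNF575 and ZNF787, which all overlap another gene. The other 213 had a ratio of 0.507 (0.434 to 0.589), and after division by length the ratios were 1.35 and 1.06. Among members without overlap the ratios were 0.566 (0.301 to 0.969) in 11 and 0.362 (0.249 to 0.509) in 50. Spearman rho between GC content and log2 ratio was 0.098 over the 52 members tested. These classes share members, overlaps and lengths, and none of the differences was tested.

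The last comparison took the proteins that KRAB zinc finger factors recruit. All 28 listed genes were detected in both libraries, at a median of 39.2 Illumina TPM beside 1.28 TPM over all members. By the exact conditional binomial test with Benjamini-Hochberg adjustment, 20 of 28 were higher by Illumina and none by Nanopore at any fold (background 27.2% and 20.2%), and 3 were higher by Illumina at 4-fold or more (background 7.31%). Their median log2 ratio was -1.06, beside -0.42 over all genes tested. With Illumina counts divided by length it was 0.43, as over all genes tested. The listed genes had medians of 140 Illumina CPM and 8338 exonic bases. Among other protein-coding genes of 6765 exonic bases or more, the median log2 ratio was -0.90. Of 3808 such genes tested, 1548 were higher by Illumina at any fold, as were 3242 of 9164 other protein-coding genes at 10 Illumina CPM or more. TRIM28, the KRAB corepressor itself, had 82 Nanopore counts (203 CPM) and 71887 Illumina counts (375 CPM), a log2 ratio of -0.88. CBX3, which encodes heterochromatin protein 1 gamma, had 116 and 77002, and CHD4, the NuRD helicase, had 37 and 70370. With Illumina counts divided by length, the log2 ratios of CBX3 and CHD4 turned from -0.48 and -1.99 to 0.35 and 0.23, and that of TRIM28 stayed negative at -0.21. The 3 genes past 4-fold were DAXX, a chaperone of histone H3.3 (1 and 16312 counts), MTA2, a NuRD subunit (6 and 38468), and MORC2, an ATPase that works with the HUSH complex (3 and 8456). The CPM ratio of DAXX was 0.0292 (0.000738 to 0.162) and that of MORC2 0.169 (0.0348 to 0.493). After division by length the log2 ratio of MORC2 went from -2.42 to -0.51, under 4-fold, while DAXX and MTA2 stood at -4.44 and -3.02. Summed over the 28 genes the CPM ratio was 0.511 (0.477 to 0.546), and 1.07 (1.00 to 1.15) with Illumina counts divided by length.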

How the data were processed

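The authors deposited whole-number counts per Ensembl gene for 1 Nanopore direct RNA and 1 Illumina library, without normalization, as the values show. The submitters' processing notes name hg38, minimap2 2.11-r797, HISAT2 2.1.0 and featureCounts without roles. The annotation and the treatment of strand, multi-gene and multi-mapping reads are not given in the sources used here. The Nanopore column header, per the file headers, carries a suffix that no label explains. If those reads were corrected with Illumina reads, the libraries are not independent.

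Each library is its own group, with no replicates, so no quasi-likelihood model could be fitted. Counts became CPM by library total. Ratios are log2 of Nanopore over Illumina CPM, each plus 1, which understates rare genes. Genes averaging 5 CPM or more (12414) were compared by a two-sided exact conditional binomial test, doubling the smaller tail, with Benjamini-Hochberg adjustment over all of them. A call needs an adjusted p under 0.05 and 4-fold. The test compares these 2 libraries only and was tested on simulated data. Sums of counts carry exact 95% conditional (Clopper-Pearson) intervals. Intervals and the 3-count floor cover counting error only, since amplified reads are not independent molecules. Where 1 read was counted for several overlapping genes, a sum over them holds it more than once and its interval is too narrow. TPM divides by the union of annotated exons.

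Positions, gene types and transcripts are from GENCODE release 44 on hg38. It holds 58207 of the 58735 identifiers, and the other 528 held 0.396% of Nanopore and 0.172% of Illumina counts. Overlap means a shared base of gene bodies on either strand. Fingers, linkers and the KRAB pattern were sought in translated canonical transcripts with Biopython 1.88, in place of the RefSeq proteins first planned, which were not used here. Each finger is C, 2 to 4 residues, C, 12 residues, H, 3 to 5 residues, H. The KRAB pattern is V or L, any, F, any, D, V within the first 150 residues. Shared words are 50 bases of canonical transcript found in a gene that does not overlap.

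Named genes are the 10 members with the highest Illumina CPM, the 10 with the most Nanopore counts, called members, the 5 with the most Illumina counts among those without Nanopore counts, the leading members of each cluster and the overlapping partners of named members. Of the corepressors, those called and the 3 highest by Illumina are named. Members passing at any fold, silent members and those looked up for a known role fall outside this rule and were chosen afterwards. The members and gene lists were chosen with earlier results of these data known. Python 3.11.15, SciPy 1.17.1, pandas 2.3.3 and, for TMM scaling, edgeR 4.0.16 in R 4.3.3 were used. Alternatives were other filters, pseudocounts, scalings, lengths, cluster gaps and overlap restrictions.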

Additional observations from a re-analysis of the deposited data

How the results depend on the processing

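Of the settings below, the filter on Illumina CPM alone, the restriction to genes without exonic overlap, the sums without ZNF565 and ZNF575 and the expected detection from TPM were chosen after seeing the data. In the counts that follow, the percentage in brackets is the share of all genes tested under that setting that were called alike. Members at least 4-fold higher by Nanopore were 2 of 52 tested (12.9%). With Illumina counts divided by union exonic or canonical transcript length they became 5 of 32 (15.5%) and 4 of 30 (16.3%). They became 0 of 13 among genes without overlap (3.06%) and 0 of 21 among genes without exonic overlap (5.59%). With 5 Illumina CPM required they became 0 of 76 (3.18%). Members at least 4-fold higher by Illumina were 2 of 52 (7.31%). They became 1 of 20 (7.24%) at a minimum mean of 10 CPM, and 1 of 13 (8.90%) without overlap. A pseudocount of 5 CPM gave 0 of 52 (3.62%) and one of 0.1 CPM 3 of 52 (8.18%). Under the 2 lengths they were 0 of 32 (4.84%) and 0 of 30 (3.40%). At any fold, 6 of 52 were higher by Nanopore (20.2%). They became 0 of 13 without overlap (8.54%) and 0 of 21 without exonic overlap (10.7%). The 4 of 52 higher by Illumina (27.2%) became 1 of 32 (12.8%) with union exonic length and 0 of 30 (11.2%) with canonical length. They became 1 of 13 (31.3%) without overlap and 2 of 21 (31.6%) without exonic overlap. These counts are from the exact conditional binomial test, and restricted tests held fewer genes. The median log2 ratio of -0.51 over 52 members (-0.42 over all genes tested) became 0.33 over 20 members (-0.46) at 10 CPM. These 20 included ZNF565 and ZNF575, admitted through their Nanopore counts. It became 0.70 over 32 (0.40) and 0.81 over 30 (0.49) with the 2 lengths, and -1.24 over 21 (-0.67) without exonic overlap. Each setting admitted its own members, so 0.70 is not over the same 52 that gave 0.48. The share detected by Nanopore, 39.4%, became 11.0% at 3 counts or more and 47.5% among members without overlap. Clusters with an interval below 1 were 7, and became 3 with a gap of 2 Mb, 3 without overlapping members and 1 with TPM. Clusters above 1 were 0, and became 1 with a gap of 0.5 Mb and 1 with TPM. With TPM the ratio of members without overlap rose from 0.403 to 0.810, that of overlapping members turned from 0.725 to 1.26, and that of all members from 0.641 to 1.15. Clusters 9, 15 and 16 turned with TPM, to 1.21, 1.09 and 1.21. The cause of these changes was not tested beyond what each setting leaves out. TMM scaling raised the log2 ratio of Nanopore to Illumina CPM by 0.09 and median-ratio scaling by 0.13 before the pseudocount, and by less after it. Under both, ZNF562 no longer passed at any fold, and under median-ratio scaling the interval of cluster 16 (0.815) reached past 1. Of the values of single genes and clusters, 110 stayed on their side of the threshold without turning past it (the ratios of clusters 5 and 12, whose intervals hold 1, moved from 0.967 and 0.974 to 1.03 and 1.04 with TMM, 1.06 and 1.06 with median-ratio scaling and, for cluster 12, 1.27 with TPM), 16 no longer passed and 1, cluster 5 with TPM, newly passed. No paired analysis was possible because each platform has 1 library. At the Nanopore depth, a member under 7.44 CPM can be missed altogether.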
